A study of Mus musculus with 16 samples.

Results

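The genes described here are 9 interferon-stimulated genes of the mouse kidney: Stat2, Irf9, Irf7, Ifit1, Ifit3, Oasl2, Rsad2, Isg15 and Ifi27. They were given as a list of symbols and matched to the Ensembl gene identifiers of the count table, where all 9 were found among 56980 identifiers. Membership went by name and used no threshold on a measured value, and all 9 passed the filter on low counts that left 17972 genes for testing. After ischaemia-reperfusion injury (IRI), 8 of the 9 had a higher fitted level in Degs1-deleted than in control kidneys, and none passed the test. Of all 17972 genes tested 8733 had a higher fitted level. The 8 include Stat2, whose log2 fold change was 0.02.

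The 16 samples, 4 in each of 4 groups, were kidney cortex of male C57Bl/6J mice, and their RNA was sequenced. The knockout (iGKO) mice carried a floxed Degs1 gene and the Rosa26-CreERT2 allele, a tamoxifen-activated Cre recombinase expressed from a locus active in most cell types, so that the deletion was global and not limited to tubules. Degs1 encodes the desaturase that turns dihydroceramide into ceramide. Controls were Degs1fl/fl littermates (fl/fl). Animals of both genotypes received 3 mg tamoxifen on each of 5 days at 9 weeks of age. At 12 weeks they had either IRI, a 28 min clamp of both renal pedicles with collection 24 h later, or a sham operation without the clamp. The groups were iGKO IRI, fl/fl IRI, iGKO sham and fl/fl sham, and a library carries its group's name and replicate number. The labels do not say whether each sample came from 1 animal, so p-values measure the spread between these samples.

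Type I interferons bind a receptor on nearly all cells, and the receptor-bound kinases JAK1 and TYK2 phosphorylate STAT2. With IRF9 it enters the complex ISGF3, which binds the interferon-stimulated response element in the promoters of antiviral genes. Cells also make small amounts of these transcripts without added interferon, and nucleic acids released by damaged cells are a known trigger of the pathway.

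The promoters of the 9 genes were searched for a short form of that element, because it is the site by which ISGF3 is known to act on such genes. RefSeq promoter sequences of the build GRCm38.p6, which span 250 bases before to 50 bases after an annotated start, were found for 8 of the 9 genes, Ifi27 being the exception. The letters GAAANNGAAA, or TTTCNNTTTC on the other strand, occurred in 5 of these 8 genes and in 3.99% of the 27025 genes of the table. The windows that hold them are given 5′ to 3′ on the strand of the gene, with the matching letters in capitals.
Ifit1, chr19:34640765-34640833, plus strand: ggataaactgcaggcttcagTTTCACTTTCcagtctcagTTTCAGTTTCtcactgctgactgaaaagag
Ifit3, chr19:34583353-34583436, plus strand: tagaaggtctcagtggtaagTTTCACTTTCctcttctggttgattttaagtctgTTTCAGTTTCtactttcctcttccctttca
Isg15, chr4:156200855-156200916, minus strand: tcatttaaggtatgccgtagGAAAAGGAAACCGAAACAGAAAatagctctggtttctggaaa
Stat2, chr10:128270256-128270305, plus strand: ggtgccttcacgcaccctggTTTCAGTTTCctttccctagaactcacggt
Rsad2, chr12:26456543-26456592, minus strand: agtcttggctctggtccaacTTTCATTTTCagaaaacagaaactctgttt

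Isg15 held 3 matches that overlap each other, starting 78, 72 and 66 bases upstream of the annotated start. Ifit1 held 2, at 104 and 85 bases upstream, and Ifit3 held 2, at 156 and 122 bases upstream. Among all promoter entries, 0.225% held 2 or more matches. Stat2 held 1 match 222 bases upstream and Rsad2 held 1 match 120 bases upstream. In Irf7, Irf9 and Oasl2 these letters were not found in the windows searched. The motif match is a description of the sequence and was not tied to any value below.

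Total counts were 12704273 to 18816343 per library. Expression is given as TMM-scaled counts-per-million (CPM). Degs1 RNA checked the labels: it was 58.4, 54.8, 44.7 and 59.8 CPM in iGKO IRI, against 88.8, 115, 133 and 114 CPM in fl/fl IRI. After sham it was 65.3, 50.7, 71.7 and 40.2 CPM in iGKO and 113, 84.0, 98.7 and 105 CPM in fl/fl. Every iGKO library lay below every fl/fl library of the same operation. Some libraries stood apart. In fl/fl IRI 1 the summed level of the injured tubule markers Havcr1, Lcn2, Krt20 and Sox9 was 171 CPM, against at least 1691 CPM in the remaining 3 libraries of that group. In iGKO sham 4 mitochondrially encoded genes took 0.443% of counts, against 2.05% to 6.48% elsewhere. In iGKO sham 2 the injured tubule markers summed to 185 CPM, against 25.8 to 42.0 CPM in the other iGKO sham libraries. That was above every iGKO IRI library, at 90.9 to 167 CPM. The fits below that left out fl/fl IRI 1 and iGKO sham 4 together kept iGKO sham 2.

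The knockout was first set against control after IRI. In the fitted values Ifit3 in iGKO IRI stood at 198% of its fl/fl IRI level, Ifi27 at 193% and Irf7 at 154%, while Stat2 stood at 102% and Irf9 at 85.8%. The edgeR quasi-likelihood test, adjusted over all genes by Benjamini-Hochberg at a threshold of 0.05, called 0 of the 9 genes, beside 0.851% of all 17972 genes. At an unadjusted p under 0.05 it took 3 of the 9, Ifit3, Irf7 and Ifi27, beside 19.1% of all genes. With single libraries left out this count was 1 to 4. It was 1 without iGKO IRI 3 or fl/fl IRI 2, and 4 without iGKO sham 4, fl/fl IRI 1, iGKO IRI 1 or iGKO IRI 4. DESeq2 called 1, Ifit3, beside 942 of all 17972 genes. The median fitted log2 fold change of the 9 was 0.48, beside -0.01 over all genes tested. In the same libraries the injured tubule markers summed to 90.9 to 167 CPM in iGKO IRI, against 171 to 2620 CPM in fl/fl IRI, and their part in the values of the 9 genes was not tested. Fewer cells that make a transcript and less of it per cell cannot be told apart in whole cortex.

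**Figure D1:**
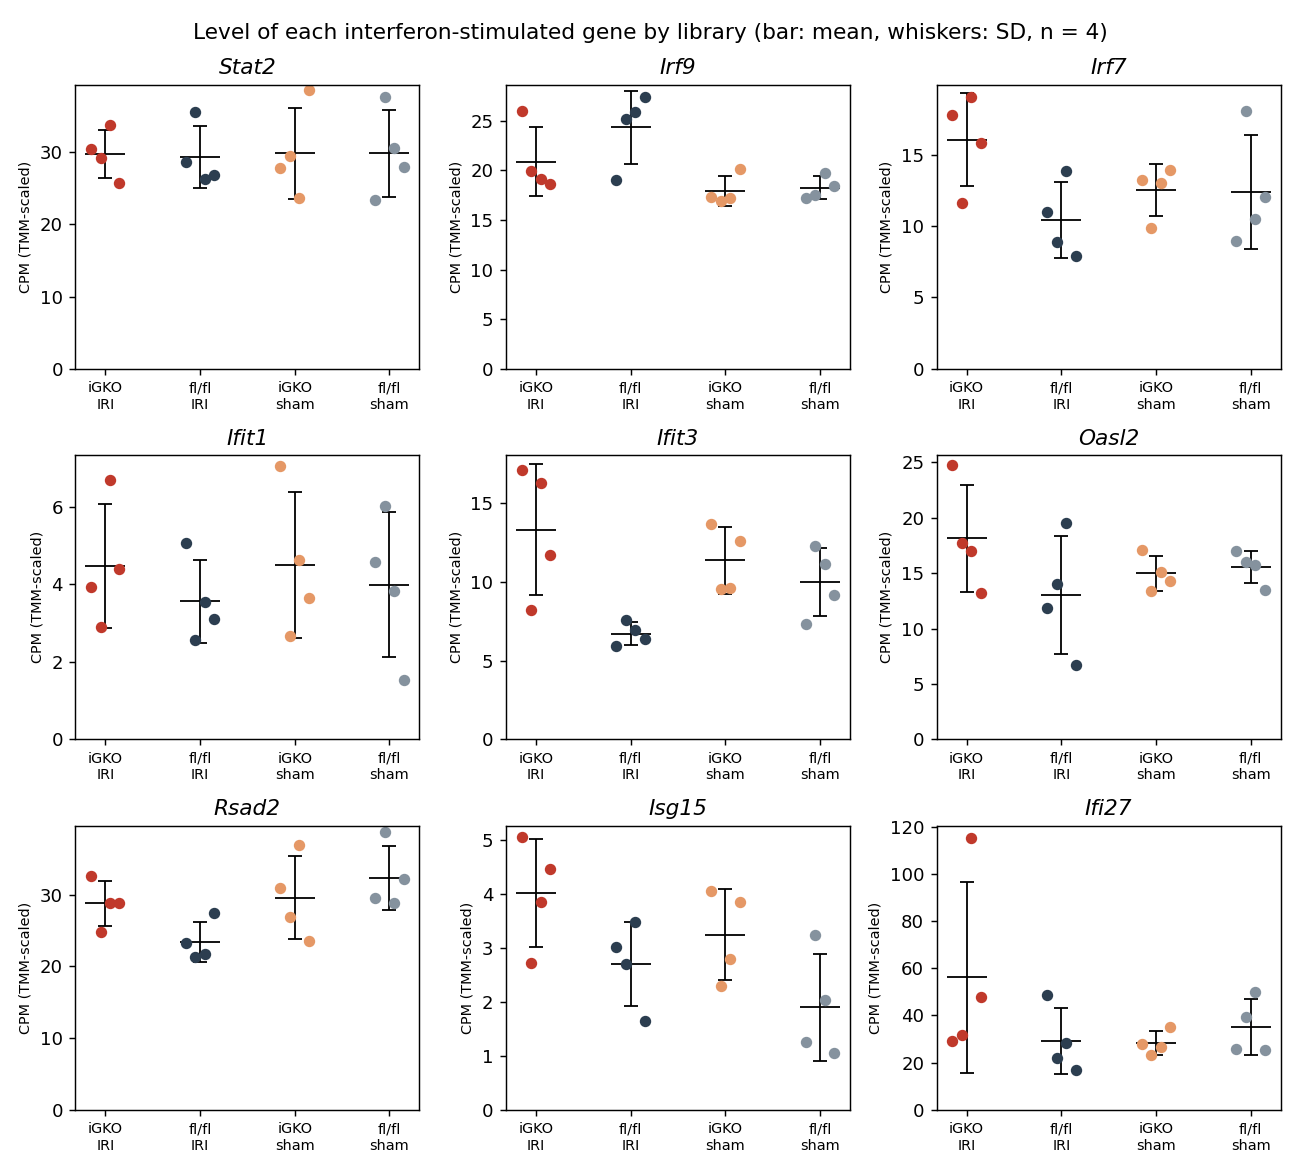
Level of each of the 9 genes in CPM (vertical axis, starting at 0) in the 16 libraries, 1 point per library, with the mean as a bar and the SD as whiskers (n = 4 per group). Groups run from iGKO IRI on the left to fl/fl sham on the right. Ifit3 is the gene whose iGKO IRI points, 8.20 to 17.1 CPM, all lie above its fl/fl IRI points, 5.95 to 7.57 CPM.

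The regulators of the response come before its products. Stat2 (ENSMUSG00000040033), the STAT subunit particular to type I and type III interferon signalling, read 30.4, 29.2, 33.8 and 25.7 CPM in iGKO IRI, against 28.6, 35.6, 26.3 and 26.9 CPM in fl/fl IRI. After sham it read 27.8, 29.5, 23.6 and 38.5 CPM in iGKO and 23.3, 37.6, 30.5 and 27.9 CPM in fl/fl. All groups overlapped, and the means of the groups stood within 1.02 times of each other. The fitted log2 fold change after IRI was 0.02 ± 0.18 (SE), with a 95% interval from -0.35 to 0.40 and an adjusted p of 0.956 by edgeR.

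Irf9 (ENSMUSG00000002325) encodes the DNA-binding partner of STAT2 in ISGF3. Its level was 26.0, 19.9, 19.1 and 18.6 CPM in iGKO IRI, against 19.0, 25.2, 25.9 and 27.4 CPM in fl/fl IRI. After sham it was 17.3, 17.0, 17.2 and 20.1 CPM in iGKO and 17.2, 17.5, 19.8 and 18.4 CPM in fl/fl. Irf9 was the 1 gene of the 9 with its highest group mean in fl/fl IRI, 24.4 ± 3.68 CPM (SD, n = 4), where the low library was fl/fl IRI 1, the one with few injury markers. Within the iGKO IRI group replicate 1 was high, and the other 3 were close to the sham libraries. The log2 fold change of iGKO over fl/fl after IRI was -0.22 ± 0.15, with an adjusted p of 0.429 by edgeR. Irf9 shares exon sequence with Rnf31 on the same strand, so reads over the shared part could have been assigned to either gene.

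Irf7 (ENSMUSG00000025498), the factor that amplifies interferon production once a response has begun, read 17.8, 11.6, 19.0 and 15.8 CPM in iGKO IRI, against 11.0, 8.86, 13.9 and 7.90 CPM in fl/fl IRI. The groups overlapped through iGKO IRI 2, which was below fl/fl IRI 3, while the other 3 iGKO libraries were above all controls. After sham the values were 13.2, 9.84, 13.0 and 14.0 CPM in iGKO and 8.93, 18.1, 10.5 and 12.0 CPM in fl/fl. The highest sham library was therefore a control, within the range of the iGKO IRI group. Irf7 had a log2 fold change of 0.62 ± 0.24 after IRI, with a 95% interval from 0.12 to 1.13 and an adjusted p of 0.181 by edgeR. Its exons overlap those of Phrf1 on the other strand, and the strand setting of the counting is not given in the sources used here.

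Among the antiviral products, Ifit3 (ENSMUSG00000074896) showed the clearest separation after IRI. It encodes a tetratricopeptide protein of the same family as IFIT1. It read 17.1, 8.20, 16.2 and 11.7 CPM in iGKO IRI, against 5.95, 7.57, 6.95 and 6.38 CPM in fl/fl IRI. All 4 iGKO libraries lay above all 4 fl/fl libraries, a pattern that 1 of the 9 genes shared with 2.48% of all genes tested, while 0 of the 9 showed the reverse beside 3.04% of all genes, and the iGKO group was the more spread. After sham it was 13.7, 9.53, 9.61 and 12.6 CPM in iGKO and 7.35, 12.3, 11.1 and 9.15 CPM in fl/fl, with overlap. Of the fl/fl IRI libraries 3 were below every sham library, and the fl/fl IRI mean of 6.71 ± 0.704 CPM was the lowest of the groups.

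The log2 fold change of Ifit3 in iGKO over fl/fl after IRI was 0.98 ± 0.24, with a 95% interval from 0.49 to 1.48. Its p was 0.000678 before and 0.0603 after adjustment by edgeR, so it did not pass. DESeq2 gave 1.00 with an adjusted p of 0.0039, and edgeR without fl/fl IRI 1 gave 0.93 with an adjusted p of 0.0277. With each of the other libraries left out in turn the adjusted p by edgeR was 0.0536 to 0.187, and over all alternatives it was 0.0039 to 0.317. Ifit3 and Ifit3b are near-identical neighbours whose reads may be split between them. Ifit3b itself was 4.70 ± 1.04 CPM in iGKO IRI and 2.37 ± 0.714 CPM in fl/fl IRI (SD, n = 4 each), a log2 fold change of 0.98 ± 0.29 with an adjusted p of 0.103 by edgeR. With the counts of both summed, the log2 fold change was 0.99 with an adjusted p of 0.0490 by edgeR.

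Ifit1 (ENSMUSG00000034459) encodes a protein that binds foreign RNA lacking the host's cap methylation. It was counted in 22 to 106 reads per library and so had wide counting error. Its level was 3.94, 2.90, 6.70 and 4.39 CPM in iGKO IRI, against 5.06, 2.57, 3.54 and 3.10 CPM in fl/fl IRI. In the sham groups it was 7.06, 2.66, 4.64 and 3.64 CPM in iGKO and 4.58, 6.03, 3.84 and 1.54 CPM in fl/fl. The groups overlapped throughout, and both the highest and the lowest library of the 16 were sham libraries. The log2 fold change after IRI was 0.33 ± 0.39, with a 95% interval from -0.49 to 1.15 and an adjusted p of 0.673 by edgeR.

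Oasl2 (ENSMUSG00000029561), a member of the oligoadenylate synthetase family with ubiquitin-like domains, read 24.7, 17.7, 17.0 and 13.2 CPM in iGKO IRI, against 11.8, 14.0, 19.6 and 6.70 CPM in fl/fl IRI. The extremes of all 16 libraries were iGKO IRI 1 and fl/fl IRI 4, and the groups overlapped. The sham libraries were close together, at 17.1, 13.4, 15.1 and 14.3 CPM in iGKO and 17.0, 16.0, 15.7 and 13.5 CPM in fl/fl. The spread after IRI, with an SD of 4.81 CPM in iGKO and 5.32 CPM in fl/fl, was larger than after sham, with 1.58 CPM in iGKO and 1.48 CPM in fl/fl. Oasl2 had a log2 fold change of 0.48 ± 0.25 after IRI with an adjusted p of 0.311 by edgeR.

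Rsad2 (ENSMUSG00000020641) encodes viperin, an enzyme that makes a chain-terminating nucleotide. It was 32.6, 24.9, 28.8 and 28.9 CPM in iGKO IRI, against 23.3, 21.4, 21.8 and 27.4 CPM in fl/fl IRI. The groups overlapped only through iGKO IRI 2 and fl/fl IRI 4. In the sham groups it was 30.9, 26.9, 37.0 and 23.5 CPM in iGKO and 29.6, 38.7, 28.9 and 32.2 CPM in fl/fl, so the highest group mean was that of fl/fl sham. The log2 fold change of iGKO over fl/fl after IRI was 0.30 ± 0.16, with an adjusted p of 0.320 by edgeR.

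Isg15 (ENSMUSG00000035692) encodes a ubiquitin-like modifier and was the thinnest of the 9 in reads, 15 to 68 per library. It read 5.05, 2.71, 3.85 and 4.46 CPM in iGKO IRI, against 3.01, 2.70, 3.47 and 1.64 CPM in fl/fl IRI. After sham it read 4.05, 2.29, 2.79 and 3.84 CPM in iGKO and 1.26, 3.24, 2.03 and 1.05 CPM in fl/fl. The iGKO mean of Isg15 was the higher after each operation, with overlap in each. After IRI its log2 fold change was 0.57 ± 0.35, adjusted p 0.382. After sham it was 0.76 ± 0.35, with an unadjusted p of 0.0465 and an adjusted p of 1.00 by edgeR.

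Ifi27 (ENSMUSG00000064215), the gene of a small hydrophobic protein induced by interferon, had the most uneven group. It was 29.3, 31.7, 115 and 48.0 CPM in iGKO IRI, against 48.9, 22.1, 28.3 and 16.9 CPM in fl/fl IRI. After sham it was 28.1, 23.1, 26.7 and 35.2 CPM in iGKO and 25.8, 39.4, 49.8 and 25.5 CPM in fl/fl. The value of iGKO IRI 3 was far above the other 15 libraries, and the groups overlapped. The log2 fold change after IRI was 0.95 ± 0.40, with a 95% interval from 0.10 to 1.80 and an adjusted p of 0.212 by edgeR. Without iGKO IRI 3 it was 0.32 with an adjusted p of 0.682, and without fl/fl IRI 1 it was 1.32 with an adjusted p of 0.0414, both by edgeR.

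The library with the high Ifi27 value also held the most RNA of fat. Adipoq and Plin1, which mark fat cells, summed to 0.445 to 214 CPM in iGKO IRI, against 0.136 to 28.4 CPM in fl/fl IRI. Adipoq had 601 reads and Plin1 had 2782 reads in iGKO IRI 3, while Adipoq had 0 reads in iGKO IRI 1, fl/fl IRI 3 and fl/fl IRI 4. Within their groups fl/fl IRI 1 and fl/fl sham 3 were likewise highest for both Ifi27 and the fat markers. In iGKO sham the highest Ifi27 library, iGKO sham 4, held 1.35 CPM of fat markers, against 24.3 CPM in iGKO sham 3. The part of fat RNA in the Ifi27 values was not tested.

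**Figure D2:**
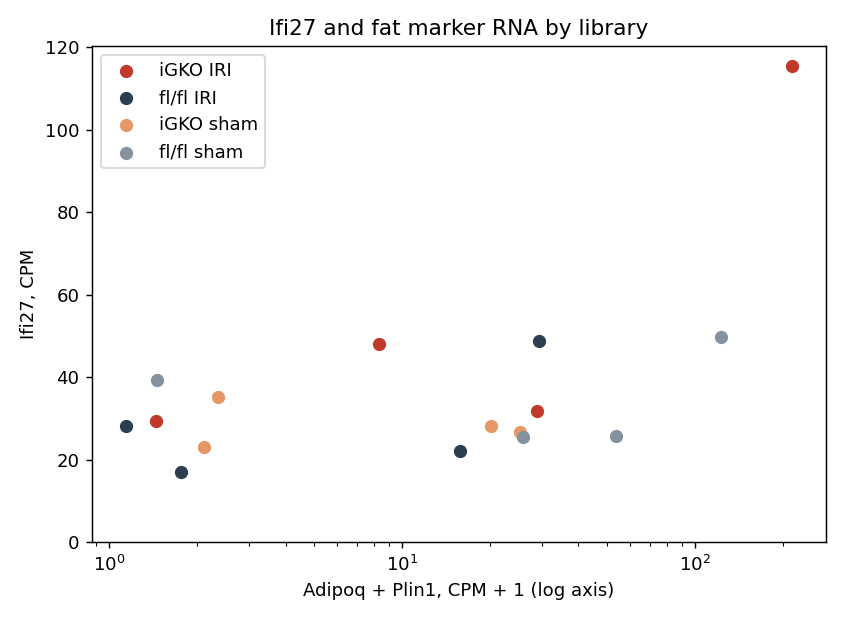
Ifi27 in CPM (vertical axis) against the summed level of the fat markers Adipoq and Plin1 in CPM plus 1 (horizontal log axis), 1 point per library and 1 colour per group. The point at the upper right is iGKO IRI 3, with 115 CPM of Ifi27 and 214 CPM of fat markers.

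After the sham operation no gene of the 9 passed the test between genotypes. There edgeR called 0 of the 9, beside 0% of all 17972 genes tested, and at an unadjusted p under 0.05 it took 1 of the 9, Isg15, beside 1.17% of all genes. DESeq2 also called 0 of the 9. Fitted log2 fold changes of iGKO over fl/fl ran from -0.31 to 0.76, with a median of 0.00 beside 0.01 over all genes. The deleted gene Degs1 was not called there either, at a log2 fold change of -0.82 and with no overlap of the groups. It was called after sham in 0 of 22 alternatives. The absence of calls after sham therefore does not show that the genotypes were equal.

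The operations were then compared within each genotype. In iGKO kidneys IRI gave no called change in the 9 genes, and their log2 fold changes of IRI over sham ran from -0.04 to 0.99 with a median of 0.23. The count was 0 of 9 beside 0% of all genes by edgeR, and 0 of 9 by DESeq2. At an unadjusted p under 0.05 it was 1 of 9, Ifi27, beside 6.37% of all genes. That value, 0.99 ± 0.40 with an adjusted p of 0.703 by edgeR, again held iGKO IRI 3, and without it the log2 fold change was 0.36 with an adjusted p of 1.00.

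In fl/fl kidneys the direction differed from gene to gene. Irf9 and Isg15 had higher fitted values after IRI than after sham, and the other 7 had lower ones, with a median log2 fold change of -0.25 beside 0.01 over all genes. Of all 17972 genes tested 8846 had a lower fitted value. By edgeR 0 of the 9 were called, beside 15.5% of all genes, 8.46% higher and 7.01% lower. The count at an unadjusted p under 0.05 was 3 of 9, beside 30.7% of all genes. All 4 Rsad2 values after IRI lay below all 4 after sham, a pattern of 1 of the 9 and of 9.82% of all genes. The reverse held for 0 of the 9, beside 9.65% of all genes. The log2 fold change of Rsad2 was -0.46 ± 0.16 with an adjusted p of 0.0583. For Irf9 it was 0.42 ± 0.15 with an adjusted p of 0.0696, and for Ifit3 -0.57 ± 0.24 with an adjusted p of 0.111, all by edgeR. Isg15 had 0.50 ± 0.36 with an adjusted p of 0.359.

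Calls in fl/fl moved with the tool and with the libraries kept. DESeq2 called 2 of the 9, Irf9 with an adjusted p of 0.0397 and Rsad2 with 0.0318, beside 3702 of all 17972 genes. Without fl/fl IRI 1 and iGKO sham 4 edgeR called the same 2 genes, Irf9 at 0.53 with an adjusted p of 0.00774 and Rsad2 at -0.45 with an adjusted p of 0.0378. That fit called 5508 of all 18243 genes tested. Leaving out single libraries gave adjusted p-values by edgeR of 0.0177 for Irf9 without fl/fl IRI 1, and of 0.0454 for Irf9 and 0.0319 for Rsad2 without iGKO sham 4. Rsad2 also had 0.0489 without iGKO sham 3 and 0.0458 without fl/fl IRI 4. In these fits with a single library left out edgeR called 1850 to 4335 of all genes tested.

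The comparison of genotypes after IRI and that of operations in fl/fl share the fl/fl IRI libraries, so the values of Ifit3 and Rsad2 in them are not separate evidence. By group means 6 of the 9 genes were lowest in fl/fl IRI and 5 were highest in iGKO IRI. The 6 include Stat2, whose group means stood within 1.02 times of each other. The share of all genes with such an order was not computed, so these counts only describe the 9 genes. Whether the response to IRI differed between genotypes was tested as an interaction, the iGKO response minus the fl/fl response. By edgeR it was called for 0 of the 9 genes, beside 0% of all genes, with 2 of 9 at an unadjusted p under 0.05 beside 11.3% of all genes, and DESeq2 called 0 of the 9. Those 2 were Ifit3, at 0.80 ± 0.33 with an adjusted p of 0.390, and Ifi27, at 1.26 ± 0.56 with an adjusted p of 0.416. Without iGKO IRI 3 the value of Ifi27 was 0.64 with an adjusted p of 0.706 by edgeR. The count at an unadjusted p under 0.05 was 0 to 3 of 9 with single libraries left out, and 0 without iGKO IRI 3, iGKO sham 2, fl/fl sham 2 or fl/fl sham 3. Irf7 stood at 0.61 ± 0.34 with an adjusted p of 0.502.

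**Figure D3:**
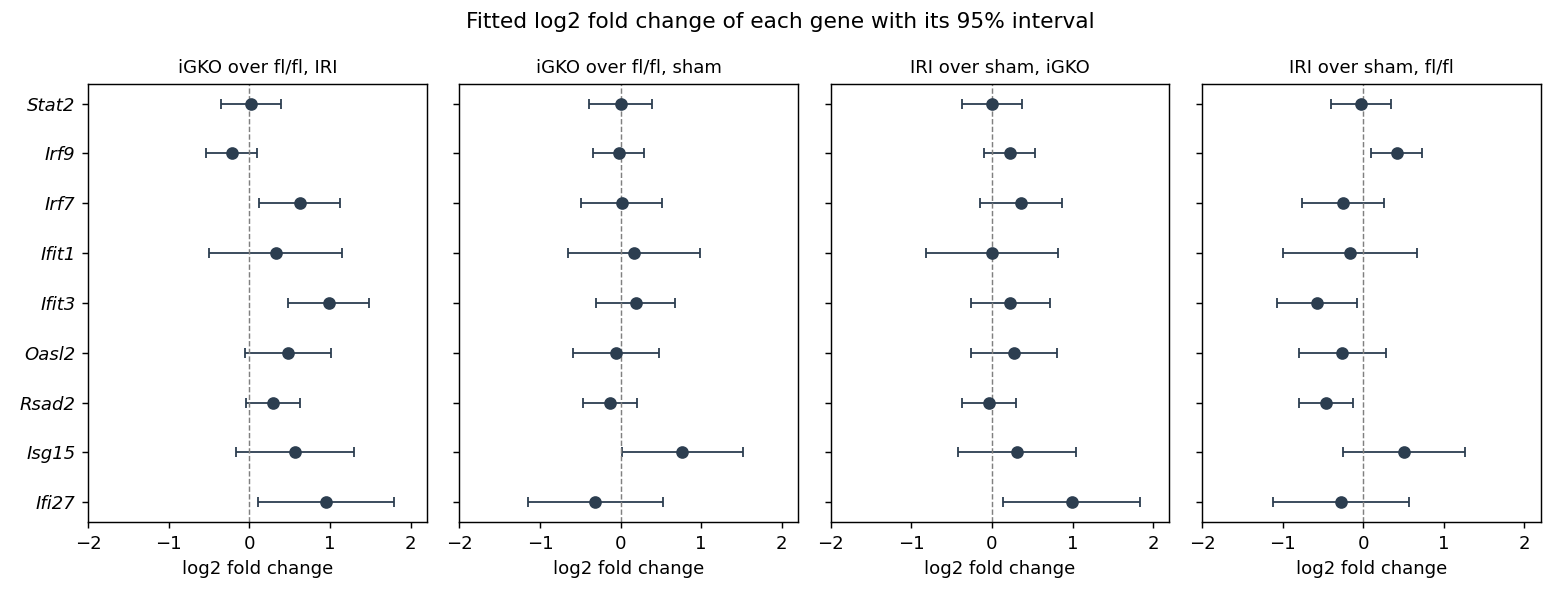
Fitted log2 fold change of each gene (point) with its 95% interval (bar) in 4 comparisons, from left to right iGKO over fl/fl after IRI, iGKO over fl/fl after sham, IRI over sham in iGKO and IRI over sham in fl/fl. In the leftmost panel the intervals of Ifit3, Irf7 and Ifi27 lie above 0, and these intervals are not adjusted for the number of genes.

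Among themselves the 9 genes varied together only in part. Each gene was put on a scale of mean 0 and SD 1 over the 16 libraries, on log2(CPM + 1), and the mean of the 9 was taken in each library. Irf7 followed this mean most closely, with a Pearson r of 0.91, followed by Ifit3 at 0.86 and Isg15 at 0.79. Ifi27 had 0.65, Ifit1 0.63, Oasl2 0.62, Stat2 0.47 and Rsad2 0.34, while Irf9 had -0.05. These values describe 16 libraries of 4 groups in which each gene is part of the mean, and they carry no test.

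The mean profile was highest in iGKO IRI 3, at 1.05 SD, and iGKO IRI 1, at 0.98 SD, while iGKO IRI 2 stood at -0.22 SD and iGKO IRI 4 at 0.23 SD. The 4 fl/fl IRI libraries stood at -0.30, -0.37, -0.05 and -0.88 SD. The next highest library after the leading pair was fl/fl sham 2, at 0.77 SD, so an elevated profile also occurred in a sham-operated control. The 10 genes outside the 9 with the profile most like this mean, by Pearson r over the 16 libraries, were B4gat1, Ifit3b, Gm12250, Flcn, Mmrn2, Mgat5, Gng7, Stra6, Dhx58 and Nme3, with r of 0.75 to 0.82.

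**Figure D4:**
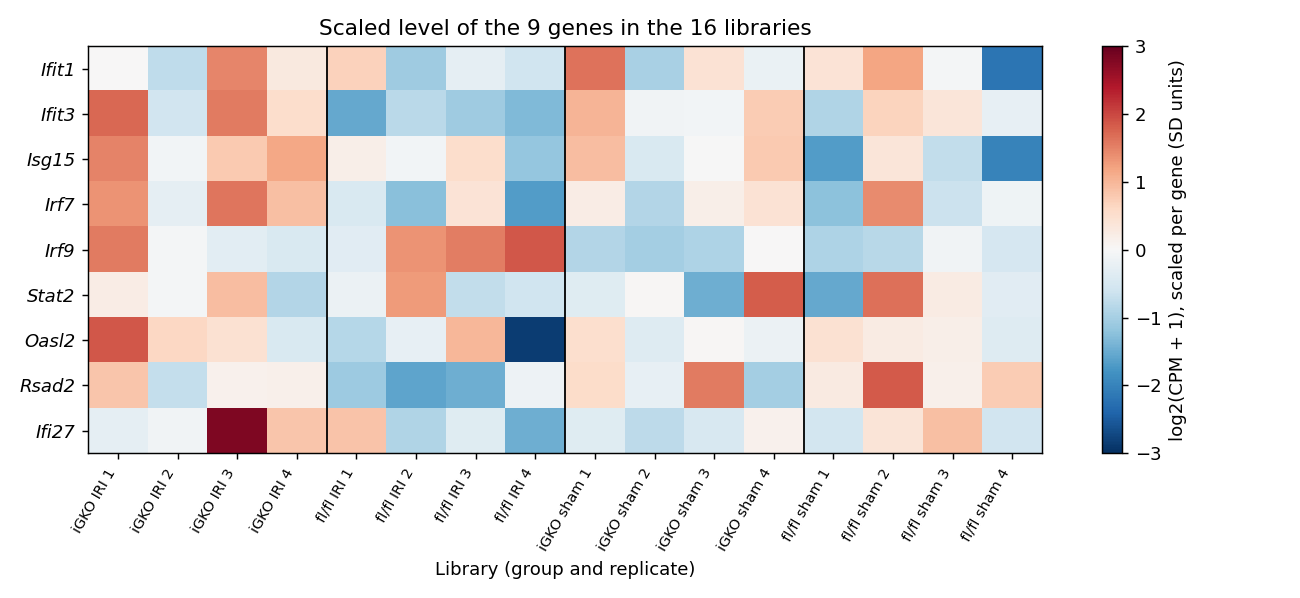
Scaled level of the 9 genes (rows) in the 16 libraries (columns, iGKO IRI at the left), as log2(CPM + 1) set to mean 0 and SD 1 per gene, with red above and blue below the gene's own mean. The libraries iGKO IRI 1 and iGKO IRI 3, with mean profiles of 0.98 and 1.05 SD, are red in most rows, and Irf9 is red in 3 of the 4 fl/fl IRI columns.

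Per kilobase of exon sequence, Ifi27 was the most abundant of the 9, with a mean over groups of 25.3 CPM per kb. Rsad2 followed with 6.59, Ifit3 with 5.92 and Stat2 with 5.01 CPM per kb. Isg15 had 3.92, Irf9 3.78, Irf7 3.40, Oasl2 2.42 and Ifit1 1.56 CPM per kb. Exon lengths came from an annotation of an earlier build than that of the counts, so this order is approximate, and neighbours such as Isg15 and Irf9 are not separated.

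The rest of the pathway was read from lists of its ligands, receptors, sensors and targets. Of 19 interferon genes in the table, 13 had no read in any library, Ifnb1 among them, and none had more than 4 reads in a library, so none was tested. At these depths transcripts of the ligands themselves were not detectable beyond a few reads. Among 10 receptor and JAK-STAT genes, 1 was called lower in iGKO after IRI and 0 higher, beside 0.673% lower and 0.178% higher over all genes, and the median log2 fold change was -0.33. The called gene was Ifngr2, the accessory chain of the interferon-gamma receptor, with 30.3 ± 4.28 CPM in iGKO IRI and 54.5 ± 16.9 CPM in fl/fl IRI (SD, n = 4 each), a log2 fold change of -0.85 ± 0.19 with an adjusted p of 0.0479 by edgeR. That call was made in 5 of the 22 alternatives run for Ifngr2. It was lost when any single library other than fl/fl IRI 1 or iGKO sham 4 was left out, and the adjusted p by edgeR or DESeq2 was 0.000434 to 0.321 over them. Jak1 at -0.54, Ifnlr1, a chain of the type III receptor, at -1.05 and Ifngr1 at -0.51 had unadjusted p under 0.05 and adjusted p-values by edgeR of 0.0777, 0.0804 and 0.108. Over the alternatives 0 to 6 of the 10 genes were called, 4 of them without fl/fl IRI 1, where 2495 of all 18392 genes tested were called.

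Of 15 nucleic acid sensors and adaptors, 0 were called after IRI with all libraries, beside 0.851% of all genes. Without fl/fl IRI 1 the count was 2, beside 2495 of all 18392 genes tested. The median with all libraries was -0.04. Tlr9, an endosomal DNA sensor, was 3.77 ± 0.831 CPM in iGKO IRI and 1.53 ± 0.671 CPM in fl/fl IRI (SD, n = 4 each). All its iGKO values lay above all fl/fl values, as for 2.48% of all genes tested. Tlr9 had a log2 fold change of 1.29 and an adjusted p of 0.0659 by edgeR. Myd88, an adaptor of most Toll-like receptors, had -0.57 with an adjusted p of 0.112. Without fl/fl IRI 1 the adjusted p by edgeR was 0.00690 for Tlr9 and 0.0123 for Myd88, and over 22 alternatives Tlr9 was called in 3 and Myd88 in 2. Among 6 tested negative regulators 0 were called with all libraries. The count was 2 without fl/fl IRI 1, beside the same 2495 genes, and 2 without iGKO sham 4, beside 235 of all 18339. The regulators with the smallest p had opposite signs. Socs3, an inhibitor of cytokine receptors, had a log2 fold change of -1.89 with an adjusted p of 0.0527, and Usp18, which removes ISG15 from proteins and damps the type I receptor, had 0.85 with an adjusted p of 0.0734, both by edgeR. Socs3 was called in 5 and Usp18 in 4 of 22 alternatives, with adjusted p-values by edgeR without fl/fl IRI 1 of 0.00249 for Socs3 and 0.0396 for Usp18. Of 7 other interferon regulatory factors and 4 ISG15 conjugation genes 0 were called with all libraries, with medians of -0.12 and 0.33.

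In 48 other type I interferon targets 0 were called after IRI with all libraries, beside 0.851% of all genes. Without fl/fl IRI 1 the count was 6, beside 2495 of all 18392 genes tested. With all libraries 31 had a fitted value above 0, beside 8733 of all 17972 genes, and the median was 0.19 beside -0.01 over all genes. Ddx60, a helicase of RNA sensing, had a log2 fold change of 1.11 with an adjusted p of 0.0666, and Cmpk2, the nucleotide kinase gene next to Rsad2, had 0.85 with an adjusted p of 0.120. Zc3hav1, a binder of viral RNA, had -0.68 with an adjusted p of 0.110, all by edgeR. Without fl/fl IRI 1 the adjusted p by edgeR was 0.0184 for Ddx60, 0.00918 for Cmpk2, 0.00586 for Zc3hav1 and 0.0364 for Ifit3b. Of 26 interferon-gamma and guanylate-binding genes 0 were called with all libraries and 2 without fl/fl IRI 1, beside the same 2495 of 18392 genes. With all libraries 23 had a fitted value above 0, beside the same 8733 of 17972 genes, and the median was 0.27. The chemokine gene Cxcl10 had the smallest p of this list, at -1.22 with an adjusted p of 0.120 by edgeR. Without fl/fl IRI 1 and iGKO sham 4 together, where 3816 of all 18243 genes tested were called, the calls were 6 in the receptor list, 2 in the sensors, 3 in the negative regulators, 8 in the type I targets and 9 in the interferon-gamma list. By DESeq2 the calls were 3 in the receptor list, 1 in the sensors, 2 in the negative regulators, 3 in the type I targets and 1 in the interferon-gamma list. DESeq2 called 942 of all 17972 genes in this comparison.

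**Figure D5:**
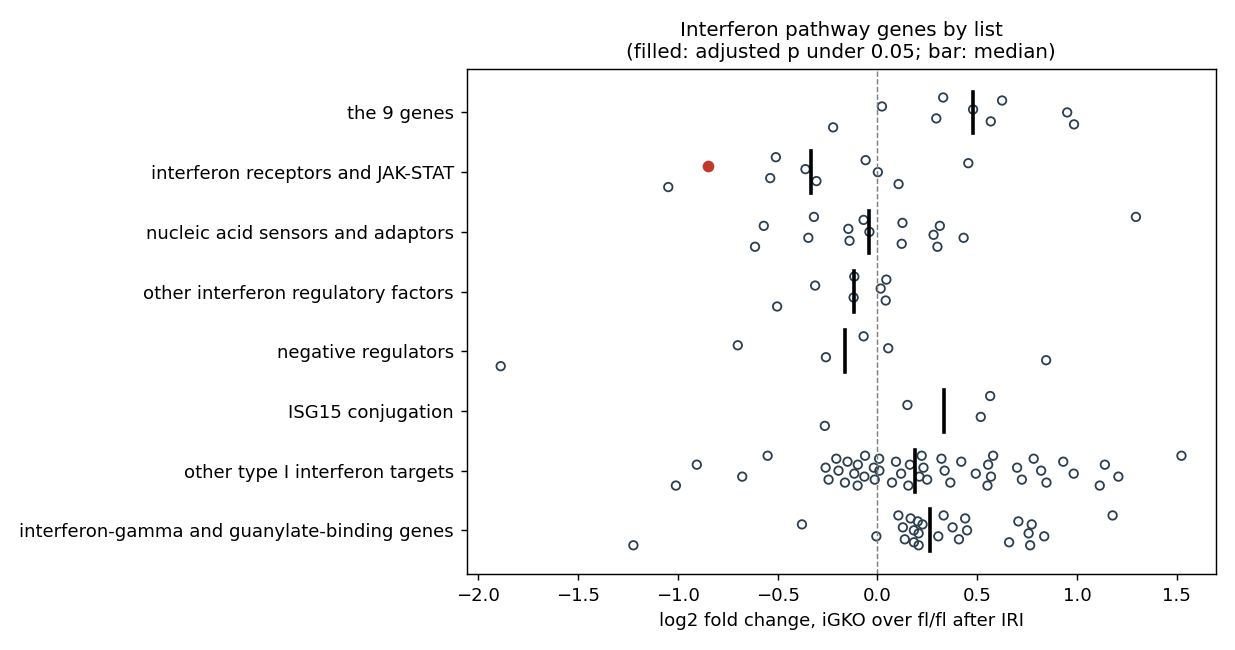
Fitted log2 fold change of iGKO over fl/fl after IRI (horizontal axis) for each tested gene of 8 interferon pathway lists (rows), 1 point per gene, with the list median as a bar. The filled point is Ifngr2, the gene called by edgeR, and the medians run from -0.33 in the receptors to 0.48 in the 9 genes.

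In fl/fl kidneys several receptor and sensor genes were called higher after IRI than after sham. The 0 of the 9 genes called there stand beside 15.5% of all genes called in either direction. Of 10 receptor and JAK-STAT genes 3 were called higher than after sham and 0 lower, beside the 8.46% higher and 7.01% lower of all genes. Ifngr2 had a log2 fold change of 1.18 with an adjusted p of 0.00159, Ifnlr1 1.22 with 0.0110 and Ifngr1 0.60 with 0.0179, by edgeR. Of 15 sensors and adaptors 2 were called higher, beside 8.46% of all genes. They were Myd88 at 0.98 and Tmem173, the gene of STING, at 1.28, with adjusted p-values by edgeR of 0.00280 and 0.0201. Among the negative regulators Socs3 was called, with 65.5 ± 47.5 CPM after IRI and 6.45 ± 0.957 CPM after sham (SD, n = 4 each) and a log2 fold change of 3.34.

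Of 48 other type I targets in fl/fl kidneys 4 were called higher and 5 lower after IRI, beside 8.46% higher and 7.01% lower of all genes. The count in either direction was 4 to 11 with single libraries left out, the lowest without fl/fl sham 3 or fl/fl IRI 3. Those fits called 1452 to 4335 of all genes tested. Without fl/fl IRI 1 and iGKO sham 4 together 14 targets were called, beside 5508 of all 18243 genes. Oasl1, a relative of Oasl2, rose by 1.80 and Zc3hav1 by 1.00 on the log2 scale, with adjusted p-values by edgeR of 0.00900 and 0.00611. Ddx60 fell by 1.13 and Sp100, a nuclear body component, fell by 0.80, with adjusted p-values by edgeR of 0.0153 and 0.0157. In the interferon-gamma list 1 gene was called higher and 2 lower of 26, and 1 to 6 were called with single libraries left out. Cxcl10 rose by 2.23, while Gbp9, a guanylate-binding protein gene, fell by 0.67 and Tgtp1, an interferon-inducible GTPase gene whose reads may be split with its near copy Tgtp2, by 1.08, with adjusted p-values by edgeR of 0.00305, 0.0300 and 0.0406. The call of Tgtp1 was made in 9 of 22 alternatives, that of Gbp9 in 16, Tmem173 in 19 and Ifngr1 in 20, and those of the other genes named as called in fl/fl in all 22. In iGKO kidneys edgeR called 0 genes of any of these lists after IRI, and in the interaction it called 0 as well. Without fl/fl IRI 1, where 776 of all 18392 genes tested were called in the interaction, the calls there were 2 in the receptor list, 1 in the negative regulators and 1 in the type I targets. Without that library and iGKO sham 4 they were 2 in the receptor list, 2 in the sensors, 1 in the negative regulators, 3 in the type I targets and 1 in the interferon-gamma list. That fit called 1489 of all 18243 genes in the interaction.

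Injury and cell type markers moved alongside these comparisons. Of the 4 injured tubule markers 3 were called lower in iGKO than in fl/fl after IRI, beside 0.673% of all genes. Neutrophil markers summed to 10.4 to 32.5 CPM in iGKO IRI, against 23.8 to 201 CPM in fl/fl IRI, with 0 of 5 tested called. All 5 had a fitted log2 fold change below 0, with a median of -2.21. All 5 also had an unadjusted p under 0.05 by edgeR, beside 19.1% of all genes. Between operations in fl/fl all 5 were called higher after IRI, beside 8.46% of all genes. Monocyte and macrophage markers, 165 to 321 CPM in iGKO IRI and 172 to 345 CPM in fl/fl IRI, overlapped widely. Of these 8 markers 7 had a fitted log2 fold change above 0, and the median was 0.40 beside -0.01 over all genes. The remaining marker, Cd14 at -2.39, was called lower, beside 0.673% of all genes. Fibroblast markers were 583 to 3993 CPM in iGKO IRI and 274 to 786 CPM in fl/fl IRI, with 0 of 3 called. The highest value was that of iGKO IRI 2, and the rest of that group held 583, 1063 and 643 CPM.

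Plasmacytoid dendritic cells, known as a main source of type I interferon, left little RNA in these libraries. Their 4 markers summed to 1.69 to 2.53 CPM in iGKO IRI and 0.744 to 2.09 CPM in fl/fl IRI. Conventional dendritic cell markers were 21.7 to 32.5 CPM in iGKO IRI and 20.6 to 24.3 CPM in fl/fl IRI. Most of that sum was Zbtb46, with 266 to 467 reads per IRI library, against 0 to 31 for each of Flt3, Xcr1 and Clec9a. T, B and NK cell markers were 0.878 to 2.65 CPM in iGKO IRI and 0.541 to 2.46 CPM in fl/fl IRI. Endothelial markers were 253 to 279 CPM in iGKO IRI and 223 to 328 CPM in fl/fl IRI. As a check of the tissue label, kidney cortex markers summed to 14615 to 21271 CPM in iGKO IRI, 10281 to 20265 CPM in fl/fl IRI, 21006 to 26089 CPM in iGKO sham and 24517 to 27882 CPM in fl/fl sham. The part of these cell types in the values of the 9 genes was not tested.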

How the data were processed

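The deposited table held counts, whole-number raw reads per Ensembl gene for 16 libraries with no normalization. Per the submitters' processing notes the tools included STAR 2.7.9a, cutadapt 1.16, featureCounts 1.6.3 and DESeq2 1.36.0, with MultiQC, Picard and FastQC, and the build was GRCm39 (mm39). The strand setting and annotation release are not given in the sources used here. Symbols and exon lengths were those of GENCODE M21, on GRCm38, joined by identifier for 52073 of 56980 identifiers, and promoter sequences from RefSeq.

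Genes were filtered by filterByExpr, scaled by TMM and fitted with the quasi-likelihood model of edgeR 4.0.16 in R 4.3.3 over all 16 libraries, with 5 two-sided contrasts adjusted by Benjamini-Hochberg over 17972 genes. Alternatives were DESeq2 1.42.0, another scaling, no filter, a replicate block, the compared groups alone and each library left out. Removal of fl/fl IRI 1 with iGKO sham 4, and the sum of Ifit3 and Ifit3b, were chosen after the data were seen. The procedure was tested on simulated data.

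The members, lists and tests were chosen with earlier results of these data known. All 9 genes are named in every library. Of other lists, genes are named from the 4 with the smallest p after IRI between genotypes or in fl/fl between operations, and likeness took the 10 genes with the highest r. Intervals cover the spread between libraries. Depth limits precision most for Isg15 and Ifit1.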

Additional observations from a re-analysis of the deposited data

Results flagged for a closer look

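Among 36 sets of 4 libraries, the 9 genes in each of 4 groups, 1 held a library far from the others by Dixon's test of the gap over the range, and chance flags about 1 in 20 such sets. It was Irf9 in iGKO sham 4, at 20.1 CPM, against 17.0 to 17.3 CPM in the other iGKO sham libraries. The gap took 0.878 of the range, above the 95% critical value for 4 samples. The same library had 0.443% of its counts in mitochondrially encoded genes, and the part of this in its Irf9 value was not tested.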

How the results depend on the processing

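Of the 9 genes, the number called after IRI between genotypes was 0 with RLE scaling, a replicate block and the compared groups alone, 1 with DESeq2, without a filter and with Ifit3 and Ifit3b summed, 2 without fl/fl IRI 1 and iGKO sham 4, and 0 to 2 with single libraries left out. In fl/fl the number called between operations was 2 with DESeq2, 2 without that pair of libraries and 0 to 2 with single libraries left out. It was 0 under all alternatives run in the other 3 contrasts. Stat2 after IRI changed sign, from -0.042 to 0.13 with single libraries left out, and was never called. Over 45 fitted values of the 9 genes, 13 changed sign in some alternative. None of them was called with its sign changed, and none was above 0.20 in size in the main fit. In an alternative the size could be larger, as for Ifit1 between operations in iGKO, at 0.29 without iGKO sham 1.

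The number of genes called among all tested depended strongly on the settings. After IRI between genotypes, 153 became 942 with DESeq2, 352 without a filter, 0 with the replicate block, 0 with the compared groups alone, 3816 without fl/fl IRI 1 and iGKO sham 4, and 0 to 2495 with single libraries left out, the highest without fl/fl IRI 1. Between operations in fl/fl, 2779 became 3702 with DESeq2, 1526 with the compared groups alone, 5508 without the pair and 1452 to 4335 with single libraries left out. Between operations in iGKO, 0 became 43 with DESeq2, 4 without a filter and 0 to 1 with single libraries left out. In the interaction, 0 became 112 with DESeq2, 15 without a filter, 1 with the replicate block, 1489 without the pair and 0 to 776 with single libraries left out. The cause was not tested. The adjusted p of a single gene moves with these counts, since it is taken over all genes.

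Replicate numbers are not stated to pair the libraries. Of 24 pairs with the same number 6 correlated above 0.1, with a median of 0.01 and a range from -0.36 to 0.45. Among the 16 libraries 7 correlated best with a library of their own number. These values were not set against those of unpaired libraries, so they do not decide whether the numbers pair them. The replicate block left 0 of the 9 genes called after IRI, with Ifit3 at 0.97 and an adjusted p of 0.103 by edgeR.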
